A study of Danio rerio with 6 samples.

Results

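The 10 genes described here encode the transcription factors that give cells the identity of neural crest, the migratory population that leaves the edge of the neural plate and forms pigment cells, peripheral neurons and glia, and the skeleton of the face. They were chosen by symbol from the textbook gene network of the crest, namely *tfap2a*, *tfap2c*, *pax3a*, *foxd3*, *snai1a*, *snai1b*, *snai2*, *sox9a*, *sox9b* and *sox10*, and make up 10 of the 32057 genes listed. Earlier results of these data were known when these genes and the gene lists used below were chosen, so their counts are descriptions only. In zebrafish embryos of the Tg (*fli1a*: EGFP) line, taken at 28 hpf (hours post fertilization), 9 of the 10 fell in the sorted EGFP+ cells after injection of a morpholino against *nlrc3* (*nlrc3* MO), and *foxd3* did not pass the test. Over all tested genes, 20.4% were called lower by the same rule. The levels of the 9 that fell were between 2.02% (*tfap2a*) and 27.0% (*sox10*) of the control MO mean.

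The comparison set 3 *nlrc3* MO samples against 3 control MO samples, both from embryos of the same transgenic line injected at the one-cell stage, with no other agent named. The stage of 28 hpf is that of the study's results text, whereas some of its figure legends give an earlier stage for the RNA-seq values. A morpholino is an antisense oligonucleotide, and the study describes those used as splice-modifying. According to its methods the *nlrc3* MO was injected at a higher concentration than the control MO, so that the oligonucleotide and its amount cannot be told apart. EGFP in this line is driven by the *fli1a* promoter, which is known to be active in endothelium, in some blood cells and in the crest-derived mesenchyme of the pharyngeal arches. The study calls its RNA-seq samples biological replicates, but how many embryos went into a sample is not given in the sources used here. If the 3 samples of a group share embryos, the p-values measure only the spread between these samples. These are bulk measurements, in which fewer cells of a type and less RNA per cell cannot be told apart.

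Expression was measured as FPKM, the fragments per kilobase of transcript scaled to the mapped fragments of the sample, which allows levels to be set side by side between genes. The values used were FPKM without read counts, so that sequencing depth is unknown here and counting error cannot be given. The targeted gene itself averaged 0.193 ± 0.0586 FPKM in *nlrc3* MO samples and 0.87 ± 0.2 FPKM in control MO samples (SD, n = 3 each), and its log2 fold change was -1.72 (limma, Benjamini-Hochberg adjusted p = 0.00175). A splice-modifying oligonucleotide need not lower the amount of its target RNA. Globin genes took 34.5% to 34.8% of all FPKM in *nlrc3* MO samples and 15.6% to 15.7% in control MO samples, and between 19060 and 19609 genes were above 0 FPKM in *nlrc3* MO samples, against 21041 to 21737 in control MO samples. The 13 endothelial genes listed as markers of the sorted population were all present, at 12.5 FPKM or more in every sample.

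In the embryo, signals at the border of the neural plate switch on border genes such as *msx*, *zic* and *dlx* factors, which with the AP-2 and Pax3 proteins turn on the crest specifiers. The specifiers regulate one another and the genes of the next steps: Foxd3 and Sox10 keep crest cells multipotent and guide the pigment and neural fates, the Snail proteins drive the change of an epithelial cell into a migrating one, and the Sox9 proteins direct crest cells to cartilage. Several act outside the crest too, AP-2 proteins in epidermis and placodes, Sox9 in the ear and brain, and Snail proteins in mesoderm.

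Each gene was tested with limma on log2(FPKM + 0.1) in one fit over the 15155 genes that reached 0.5 FPKM in at least 3 of the 6 samples. Calls required an adjusted p under 0.05 together with a fold change above 2 or below 0.5. A log2 fold change here is *nlrc3* MO minus control MO, so -1 means a halved value of FPKM + 0.1, and it understates the change of genes near 0. All 10 specifiers passed the filter on low values, though for *snai1b* no *nlrc3* MO sample reached the minimum and for *pax3a*, *sox9b* and *foxd3* only 1 or 2 did. For *snai1b* only a lower call was thus possible. Of the 10, 9 were called lower and 0 higher (limma, with 0 higher at an unadjusted p under 0.05 as well), beside 20.4% of all 15155 genes called lower and 4.89% called higher. The *nlrc3* MO and control MO samples did not overlap for the same 9 genes, while all *nlrc3* MO samples lay below all control MO samples in 46.1% of tested genes and above them in 22.8%. The median log2 fold change of the 10 was -3.57, beside -0.22 over all tested genes.

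**Figure D1:**
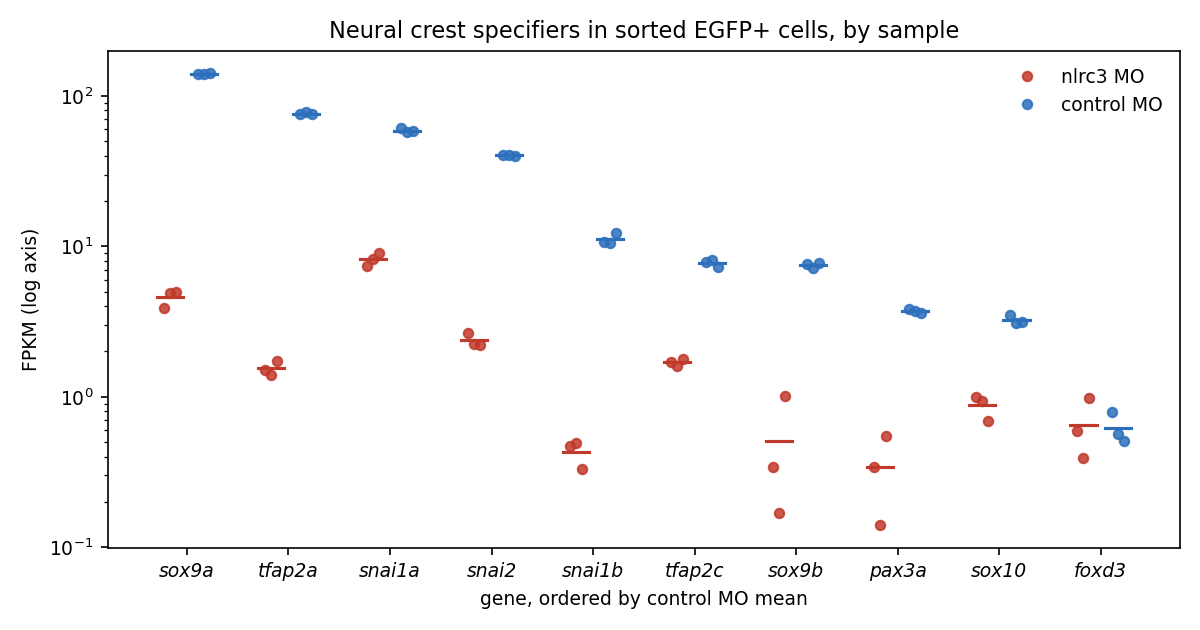
FPKM of the 10 neural crest specifiers in each sample on a log axis, *nlrc3* MO samples left of control MO samples for each gene, with points for samples and lines for the mean of 3. The groups are apart for every gene except *foxd3*, where *nlrc3* MO samples span 0.39 to 0.98 FPKM and control MO samples 0.51 to 0.79 FPKM.

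AP-2 transcription factors act first among the specifiers, and in zebrafish *tfap2a* and *tfap2c* are known to be needed together for the crest to form. *tfap2a* had 1.51, 1.40 and 1.72 FPKM in *nlrc3* MO samples, against 75.63, 77.89 and 75.44 FPKM in control MO samples. Every *nlrc3* MO sample was thus far below every control MO sample, with a gap of 43.9-fold between the nearest samples of the groups. The log2 fold change was -5.54 (95% confidence interval -5.73 to -5.36, limma adjusted p = 4.1e-09), the most negative of the 10 specifiers and the 65th lowest of all 15155 tested genes.

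*tfap2c* had 1.70, 1.61 and 1.77 FPKM in *nlrc3* MO samples, against 7.90, 8.07 and 7.25 FPKM in control MO samples. It fell by less than *tfap2a*, with a log2 fold change of -2.13 (95% confidence interval -2.36 to -1.89, limma adjusted p = 1.3e-06). Both groups were tight, with a coefficient of variation of 4.74% in *nlrc3* MO samples and 5.59% in control MO samples.

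The 2 AP-2 genes therefore stood at nearly the same level in *nlrc3* MO samples and far apart in control MO samples. The ratio of *tfap2a* to *tfap2c* within a sample, which no scaling of the samples can change except through the added 0.1, had log2 values of -0.16, -0.19 and -0.0391 in *nlrc3* MO samples and 3.24, 3.25 and 3.36 in control MO samples. The difference of the means was -3.42, with no overlap between groups (exact permutation test, two-sided p = 0.1, which is the smallest that 3 against 3 allows, and 0.15 after adjustment over the 3 paralog pairs compared). The design cannot reach a p under 0.05 for such a ratio.

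*pax3a* encodes a paired-box factor of the neural plate border, crest and muscle precursors, and acts upstream of pigment cell genes. It had 0.34, 0.14 and 0.55 FPKM in *nlrc3* MO samples, against 3.85, 3.72 and 3.61 FPKM in control MO samples. The 3 *nlrc3* MO samples differed among themselves by up to 3.93-fold at these low levels, while the control MO samples differed by 1.07-fold. The groups did not overlap, and the log2 fold change was -3.22 (95% confidence interval -4.04 to -2.41, limma adjusted p = 0.000122).

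*foxd3* encodes a forkhead repressor that holds crest cells in a multipotent state and is usually among the earliest crest markers. It had 0.59, 0.39 and 0.98 FPKM in *nlrc3* MO samples, against 0.79, 0.57 and 0.51 FPKM in control MO samples, where it was the lowest of the 10. The groups overlapped, since the highest and the lowest of the 6 values were both *nlrc3* MO samples. Its log2 fold change of 0.00185 had a 95% confidence interval of -0.81 to 0.81 (limma adjusted p = 0.997), so that neither a decrease nor an increase of that size could be told from no change. The sign of this value turned when single samples were left out or the samples were rescaled to equal totals.

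**Figure D2:**
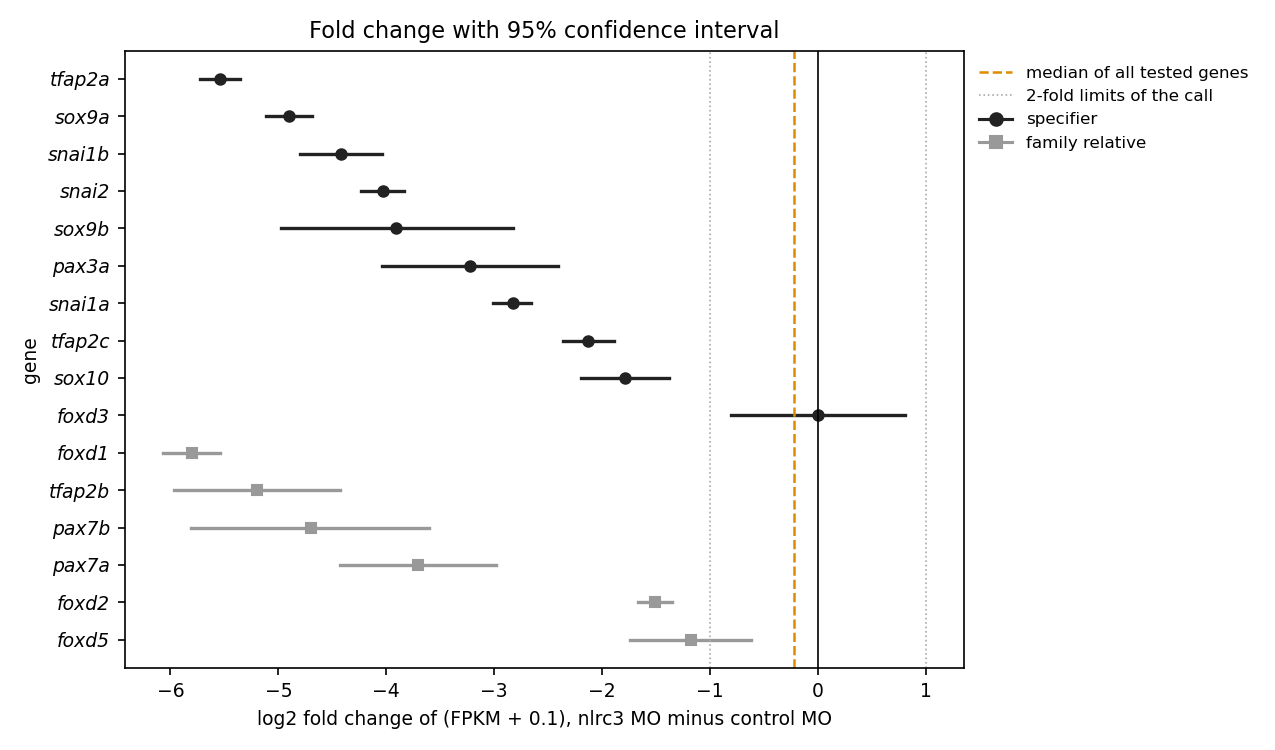
Log2 fold change of FPKM + 0.1, *nlrc3* MO minus control MO, with its 95% confidence interval for the 10 specifiers (circles) and the 6 tested relatives of the same families (squares), beside the median of all tested genes (dashed) and the 2-fold limits (dotted). All intervals except that of *foxd3* lie below 0, from -5.54 for *tfap2a* to -1.79 for *sox10* among the other 9 specifiers.

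Snail proteins are zinc finger repressors that switch off epithelial genes, cadherin-1 among them, as crest and mesoderm cells begin to migrate. All 3 Snail members fell. *snai1a* had 7.39, 8.18 and 9.04 FPKM in *nlrc3* MO samples, against 60.83, 57.55 and 58.09 FPKM in control MO samples. Its log2 fold change was -2.83 (95% confidence interval -3.01 to -2.66, limma adjusted p = 7.28e-08), the least negative of the 3. In *nlrc3* MO samples it was the most abundant of the 10 specifiers.

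*snai1b*, the paralog, had 0.47, 0.49 and 0.33 FPKM in *nlrc3* MO samples, against 10.70, 10.51 and 12.21 FPKM in control MO samples. The nearest samples of the groups were 21.4-fold apart, and the log2 fold change was -4.42 (95% confidence interval -4.80 to -4.04, limma adjusted p = 3.85e-07). No *nlrc3* MO sample of *snai1b* reached the minimum of the filter, so only a lower call was possible. *snai2*, the Slug gene of other vertebrates, had 2.67, 2.24 and 2.22 FPKM in *nlrc3* MO samples, against 40.61, 40.51 and 39.94 FPKM in control MO samples. The control MO values of *snai2* agreed within a coefficient of variation of 0.896%, and its log2 fold change was -4.03 (95% confidence interval -4.23 to -3.84, limma adjusted p = 2.06e-08).

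Within a sample, the log2 ratio of *snai1a* to *snai1b* was 3.72, 3.81 and 4.41 in *nlrc3* MO samples and 2.50, 2.44 and 2.24 in control MO samples. The groups did not overlap, and the difference of 1.59 was in the opposite direction to that of the AP-2 pair, with the more abundant paralog now losing less (exact permutation test, two-sided p = 0.1, the smallest possible, and 0.15 adjusted over the 3 pairs). This difference rests in part on the low values of *snai1b*: with 1 FPKM added in place of 0.1 it was 0.38.

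The SoxE factors *sox9a*, *sox9b* and *sox10* bind DNA through an HMG box. The zebrafish *sox9* paralogs divide the work of the single mammalian gene, with *sox9a* known mainly for cartilage, and *sox10* is needed for pigment cells, glia and enteric neurons. *sox9a* had 3.91, 4.90 and 4.99 FPKM in *nlrc3* MO samples, against 139.34, 139.02 and 141.18 FPKM in control MO samples, where it was the most abundant specifier. The log2 fold change was -4.90 (95% confidence interval -5.11 to -4.69, limma adjusted p = 1.24e-08), and the nearest samples of the groups were 27.9-fold apart.

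*sox9b* had 0.34, 0.17 and 1.01 FPKM in *nlrc3* MO samples, against 7.68, 7.17 and 7.78 FPKM in control MO samples. One *nlrc3* MO sample, replicate 3, was 5.94-fold above the lowest of its group, the widest spread of any specifier, yet it remained 7.10-fold below the lowest control MO sample. The log2 fold change was -3.91 with a wide 95% confidence interval of -4.98 to -2.83 (limma adjusted p = 0.000197). *sox9b* and *pax3a* were thus the least precisely measured of the 9 that fell, with standard errors of 0.459 and 0.348, against 0.0748 to 0.175 for the other 7.

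*sox10* had 1.0, 0.94 and 0.69 FPKM in *nlrc3* MO samples, against 3.49, 3.11 and 3.15 FPKM in control MO samples. Its levels were low in both groups and did not overlap, and its log2 fold change of -1.79 (95% confidence interval -2.20 to -1.38, limma adjusted p = 7.13e-05) was the least negative of the 9. At 27.0% of the control MO mean it kept more of its level than any other specifier that fell, whereas *sox9a* and *sox9b* stood at 3.29% and 6.72%.

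For the Sox9 pair the log2 ratio of *sox9a* to *sox9b* was 3.19, 4.21 and 2.20 in *nlrc3* MO samples and 4.16, 4.26 and 4.16 in control MO samples. Here the groups overlapped, and the difference of -1.0 was not larger than the spread between *nlrc3* MO samples (SD 1.01, exact permutation test, two-sided p = 0.3, also 0.3 after adjustment over the 3 pairs). Without *nlrc3* MO replicate 3 the difference was -0.50 and without *nlrc3* MO replicate 2 it was -1.50, while with 1 FPKM added in place of 0.1 it was -2.12. Of the 3 pairs, 2 thus had ratios that did not overlap between groups, and these moved in opposite directions. Among single tested genes the groups were often apart too, 46.1% with lower and 22.8% with higher *nlrc3* MO values. The share over other gene pairs was not computed, so the count of 2 is a description only.

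**Figure D3:**
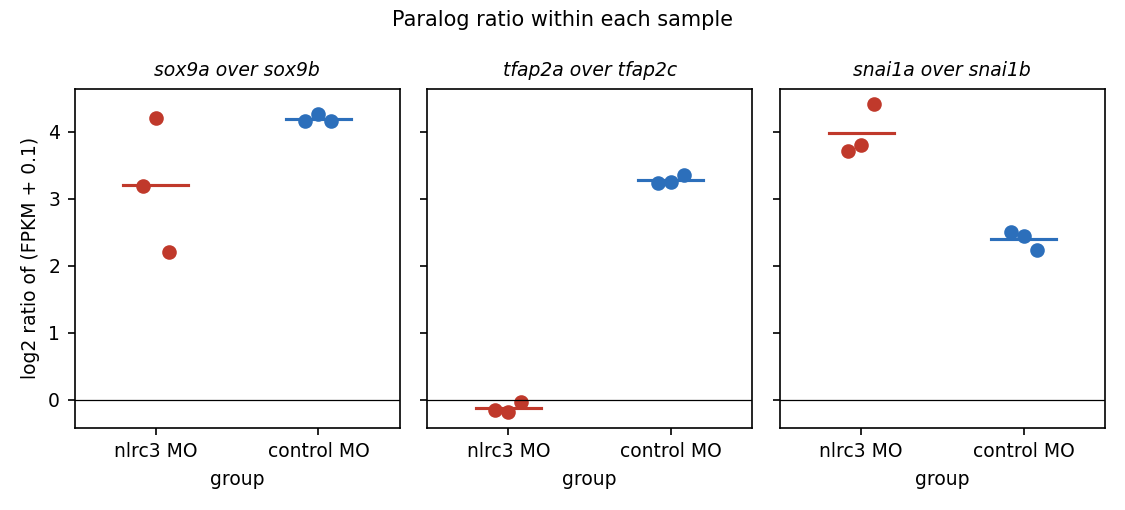
Log2 ratio of the 2 paralogs of each pair within a sample, on FPKM + 0.1, *nlrc3* MO left and control MO right, with points for samples and lines for means. The *tfap2a* to *tfap2c* ratio is near 0 in *nlrc3* MO samples and above 3.2 in control MO samples, the *snai1a* to *snai1b* ratio is higher in *nlrc3* MO samples, and the *sox9a* to *sox9b* ratios overlap.

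Added together, the 10 specifiers summed to 19.92, 20.46 and 23.30 FPKM in *nlrc3* MO samples, against 350.82, 348.12 and 349.16 FPKM in control MO samples. The *nlrc3* MO sum was 6.08% of the control MO sum, and its makeup differed as well. *sox9a* made up 19.6% to 23.9% of the sum in *nlrc3* MO samples and 39.7% to 40.4% in control MO samples, and *tfap2a* 6.84% to 7.58% and 21.6% to 22.4%. *snai1a* took the larger share in *nlrc3* MO samples, with 37.1% to 40%, against 16.5% to 17.3% in control MO samples.

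The order of the levels differed between the groups. In *nlrc3* MO samples it ran *snai1a*, *sox9a*, *snai2*, *tfap2c*, *tfap2a*, *sox10*, *foxd3*, *sox9b*, *snai1b* and *pax3a*. The last 5 of these all overlapped with their neighbours, as did *tfap2c* with *tfap2a*, so that only the upper 3 places, and the step between *tfap2a* and *sox10*, were separated beyond the spread of the samples. In control MO samples the order was *sox9a*, *tfap2a*, *snai1a*, *snai2*, *snai1b*, *tfap2c*, *sox9b*, *pax3a*, *sox10* and *foxd3*, and of neighbours in it only *tfap2c* and *sox9b* overlapped (7.25 to 8.07 and 7.17 to 7.78 FPKM). Among tested genes ranked by mean FPKM, *sox9a* and *tfap2a* stood at the 51.9th and 27.9th percentile in *nlrc3* MO samples, against the 97.4th and 95.1st in control MO samples.

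The 9 specifiers called lower kept their direction under the 4 other scalings tried, while the sign of *foxd3*, not called, turned under some of them. Rescaled to equal totals (TPM), by the median of ratios, to equal totals without globin genes, or to the endothelial genes, all 9 stayed called lower, with log2 fold changes of -5.95 to -5.22 for *tfap2a* and -2.20 to -1.48 for *sox10*. The median over all tested genes moved from -0.22 as deposited to -0.60 with TPM, -0.01 with the median of ratios, -0.23 without globin genes and 0.10 with endothelial scaling. Each scaling divides all genes of a sample by the same factor, so the members had to move by about the same amounts. Their nearly unchanged distance from the other genes, seen in the plot of the 5 scalings, is therefore not a separate result. Relative to the endothelial genes of the same sample, the sum of the 10 specifiers was 0.0323 to 0.0376 in *nlrc3* MO samples, against 0.391 to 0.394 in control MO samples.

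The relatives of the specifiers in the same families were next examined, 12 genes in all. Of these, 6 reached the filter and all 6 were called lower, beside 20.4% of all tested genes. However, *tfap2b*, *pax7a* and *pax7b* reached the filter only through control MO samples. *foxd1*, a forkhead gene close to *foxd3*, was the most abundant, with 0.75, 0.85 and 1.02 FPKM in *nlrc3* MO samples, against 50.33, 54.37 and 56.93 FPKM in control MO samples (log2 fold change -5.80, limma adjusted p = 1.71e-08). *foxd2* averaged 5.41 ± 0.367 FPKM in *nlrc3* MO samples and 15.6 ± 0.0954 FPKM in control MO samples (log2 fold change -1.51, SD, n = 3 each). *foxd5* averaged 1.07 ± 0.295 FPKM and 2.50 ± 0.434 FPKM in these groups, and its fold change of -1.18 was no longer past the 2-fold limit under the median of ratios or the endothelial scaling. The FoxD genes thus differed among themselves, with *foxd3* the one whose groups overlapped.

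In the Pax and AP-2 families, *pax7b* averaged 0.160 ± 0.144 FPKM in *nlrc3* MO samples and 5.78 ± 0.534 FPKM in control MO samples (SD, n = 3 each), and *pax7a* 0.0767 ± 0.0493 and 2.15 ± 0.255 FPKM. The Pax7 proteins act beside Pax3 in crest and muscle precursors. *tfap2b* averaged 0.0733 ± 0.0839 FPKM in *nlrc3* MO samples and 5.84 ± 0.186 FPKM in control MO samples, a log2 fold change of -5.20 (limma adjusted p = 6.85e-06). The other relatives were too low to test: *sox8b*, the third kind of SoxE gene, was listed at 0 in all *nlrc3* MO samples and at 0.63, 0.41 and 0.43 FPKM in control MO samples, *pax3b* and *tfap2e* averaged 0.400 and 0.267 FPKM in control MO samples, and *sox8a*, *tfap2d* and *snai3* did not reach 0.1 FPKM in any sample.

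Upstream of the specifiers stand the genes of the neural plate border. Of 14 listed, 13 were tested and all 13 were called lower, beside 20.4% of all tested genes. Their median was -3.00 on the log2 scale, and *msx2a* was too low to test. For *dlx4b* and *zic1* no *nlrc3* MO sample reached the minimum of the filter. The most abundant were *dlx5a* and *dlx3b*, homeobox genes of the border and placodes. *dlx5a* had 1.08, 1.92 and 0.68 FPKM in *nlrc3* MO samples, against 66.61, 75.68 and 66.61 FPKM in control MO samples (log2 fold change -5.82, limma adjusted p = 2.25e-06). *dlx3b* averaged 1.53 ± 0.420 and 62.2 ± 2.98 FPKM in these groups. *prdm1a*, which in zebrafish helps to turn on *foxd3* and *tfap2a* at the border, averaged 6.47 ± 0.352 FPKM in *nlrc3* MO samples and 52.8 ± 1.91 FPKM in control MO samples (log2 fold change -3.01), and *msx1b* 4.18 ± 0.357 and 35.2 ± 2.47 FPKM (SD, n = 3 each). The calls of the list were the same under each of the 5 scalings.

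Other genes used by crest cells were mostly lower. Of 17 tested, 14 were called lower and 0 higher (limma, with 1 gene higher at an unadjusted p under 0.05). The share called lower was 82.4%, beside 20.4% of all tested genes, and the median log2 fold change was -2.69. For *twist1b*, *crestin* and *zeb2b*, all called lower, no *nlrc3* MO sample reached the minimum of the filter, so only a lower call was possible. *twist1a*, a bHLH factor of crest mesenchyme, had 3.44, 2.79 and 2.01 FPKM in *nlrc3* MO samples, against 235.82, 231.84 and 232.43 FPKM in control MO samples (log2 fold change -6.39, limma adjusted p = 6.43e-08). *id3*, an inhibitor of bHLH factors that keeps crest progenitors dividing in Xenopus, averaged 23.2 ± 3.19 and 203 ± 4.15 FPKM in these groups, and *mych*, a Myc family gene, 20.4 ± 1.81 and 132 ± 2.94 FPKM. *ets1*, which serves both crest and endothelium, averaged 30.2 ± 4.43 and 60.9 ± 2.03 FPKM, and its log2 fold change of -1.02 lost its call under the median of ratios and the endothelial scaling.

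The 3 genes of that list that were not called are named after their values were seen. *zeb2a*, which encodes a zinc finger repressor of crest that is also active in blood cells, had 35.61, 38.39 and 37.63 FPKM in *nlrc3* MO samples, against 22.76, 21.96 and 24.33 FPKM in control MO samples. Its log2 fold change of 0.69 (limma adjusted p = 1.93e-05) was short of the 2-fold limit and was past it under the endothelial scaling. *tfec*, a pigment progenitor gene that also acts in endothelium, averaged 15.2 ± 1.17 and 19.9 ± 1.04 FPKM in these groups, and *sox6* averaged 10.4 ± 0.267 and 9.98 ± 0.405 FPKM. The zebrafish crest marker *crestin*, also named after its values were seen, averaged 0.127 ± 0.0252 FPKM in *nlrc3* MO samples and 4.23 ± 1.25 FPKM in control MO samples.

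**Figure D4:**
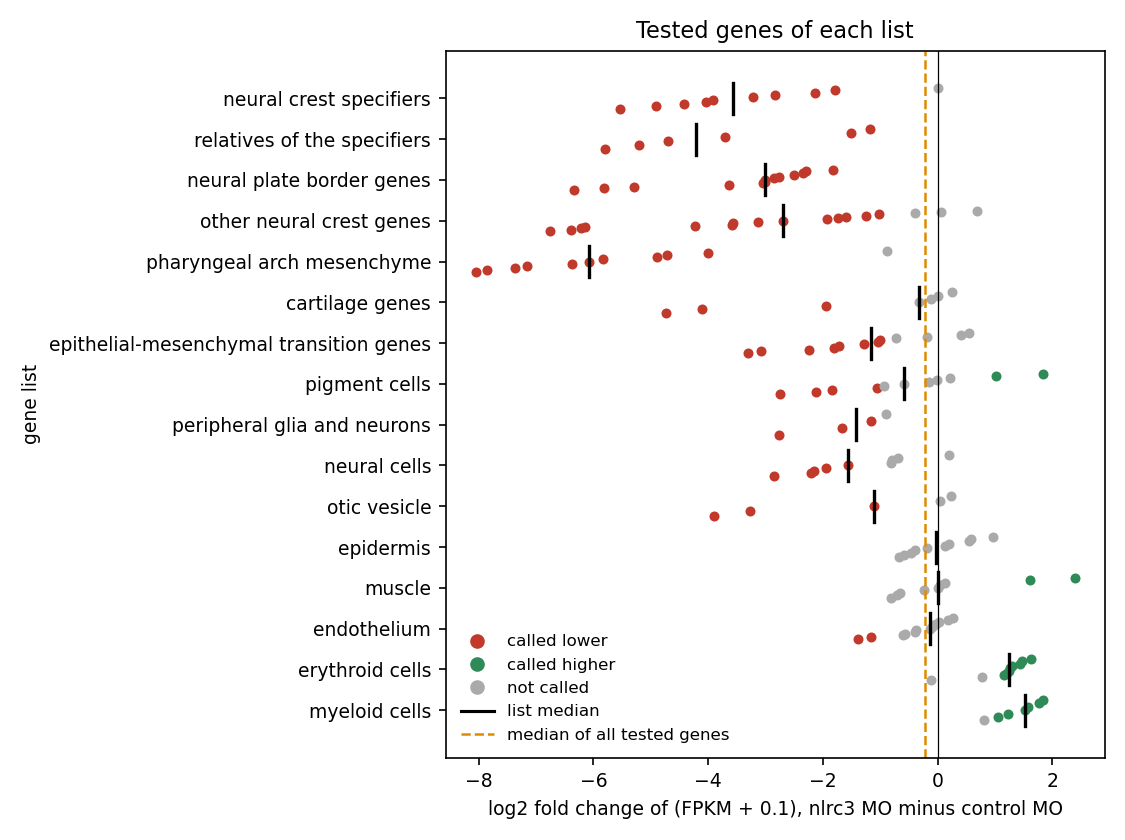
Log2 fold change of every tested gene in each list, *nlrc3* MO minus control MO, coloured by its call, with the list median as a bar and that of all tested genes as a dashed line. The crest, border and arch lists lie mostly below -1, the epidermal and muscle lists lie around 0, and the erythroid and myeloid lists lie mostly above 1.

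The arch mesenchyme is the crest derivative that the *fli1a* reporter is known to mark. Of its 11 tested genes, 10 were called lower (90.9%, beside 20.4% of all tested genes), with a median log2 fold change of -6.07. For 4 of these no *nlrc3* MO sample reached the minimum of the filter. *dlx2a*, *pdgfra*, *nr2f5* and *prrx1a* had log2 fold changes of -7.36, -6.07, -4.01 and -4.71, and *dlx2b*, the gene not called, averaged 0.367 and 0.703 FPKM in *nlrc3* MO and control MO samples. The summed arch genes stood at 2.09% of the control MO sum and the summed specifiers at 6.08%. The ratio of the specifier sum to the arch sum within a sample was 1.76 to 2.35 in *nlrc3* MO samples, against 0.698 to 0.713 in control MO samples, without overlap (values only, with no test).

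The cartilage list holds collagens that Sox9 proteins activate in chondrocytes and other skeletal genes. Of its 7 tested genes, 6 collagens and *runx3*, 3 were called lower and 0 higher (limma, 0 higher at an unadjusted p under 0.05 as well), with a median of -0.33. The share called lower was 42.9%, beside 20.4% of all tested genes. *col2a1b* had 5.56, 5.39 and 5.49 FPKM in *nlrc3* MO samples, against 94.36, 95.39 and 96.58 FPKM in control MO samples (log2 fold change -4.10, limma adjusted p = 6.9e-10). Its paralog *col2a1a* had 9.88, 9.84 and 10.38 FPKM, against 10.65, 11.48 and 10.35 FPKM, with overlapping groups and a log2 fold change of -0.11 (limma adjusted p = 0.184). *col9a1a* averaged 0.310 and 10.3 FPKM in *nlrc3* MO and control MO samples and *col11a1a* 4.56 and 17.8 FPKM, and both were called lower under each of the 5 scalings, though no *nlrc3* MO sample of *col9a1a* reached the minimum of the filter.

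Genes of epithelial-mesenchymal transition, the step that Snail proteins control, were lower for 8 of 12 tested and higher for 0 (limma, 1 higher at an unadjusted p under 0.05), with a median of -1.16. The share called lower was 66.7%, beside 20.4% of all tested genes. Among the most abundant, the metalloproteases *mmp2* and *mmp14b* averaged 17.0 ± 0.561 and 20.2 ± 1.48 FPKM in *nlrc3* MO samples and 55.9 ± 1.49 and 49.3 ± 2.41 FPKM in control MO samples. *fn1a*, a fibronectin, had a log2 fold change of -3.31, and *zeb1b* of -1.04. Of the 8 calls, 6 were left under the median of ratios, without *zeb1b* and *vim*, and 5 under the endothelial scaling, without *mmp14b* as well. *cdh1*, the epithelial cadherin that Snail proteins repress in mammals, was not called: it had 2.11, 1.88 and 2.10 FPKM in *nlrc3* MO samples, against 2.35, 2.09 and 2.49 FPKM in control MO samples, with overlapping groups (log2 fold change -0.18, limma adjusted p = 0.28). *cdh2*, the mesenchymal cadherin, averaged 5.04 ± 0.540 and 24.2 ± 0.295 FPKM (log2 fold change -2.24), and both cadherins are named after their values were seen.

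Pigment cell genes were low in both groups. Of 15 listed, 11 were tested, and 4 were called lower (36.4%, beside 20.4% of all tested genes) and 2 higher (beside 4.89%). Their median was -0.59, and the sum of the list was 89.2% of the control MO sum. For *gpr143*, *kita* and *tyrp1b*, 3 of the 4 lower calls, no *nlrc3* MO sample reached the minimum of the filter. *mitfa*, the melanophore gene that Sox10 turns on, had 0.55, 1.06 and 0.73 FPKM in *nlrc3* MO samples, against 0.32, 0.30 and 0.36 FPKM in control MO samples. No control MO sample of *mitfa* reached the minimum of the filter, so only a higher call was possible. It was called higher (log2 fold change 1.01, limma adjusted p = 0.0199). That call was lost with TPM, without globin genes and with 1 FPKM added. *csf1ra*, a receptor of xanthophores and of macrophages, averaged 5.34 ± 0.212 FPKM in *nlrc3* MO samples and 1.43 ± 0.199 FPKM in control MO samples. It was called higher and was the most abundant gene of the list in *nlrc3* MO samples. The summed list therefore does not show the level of the other pigment genes. *gch2*, a gene of pteridine synthesis, averaged 4.5 ± 0.495 and 4.51 ± 0.465 FPKM and was not called, while *pmela* and *gpr143* were called lower (log2 fold changes -1.05 and -2.12), *pmela* not under the median of ratios or the endothelial scaling. Of 11 genes of peripheral glia and neurons 4 were tested. *egr2b*, *ascl1a* and *plp1a* were called lower (75.0%, beside 20.4% of all tested genes), with *neurog1* short of the 2-fold limit at -0.90. No *nlrc3* MO sample of *plp1a* reached the minimum of the filter. The *plp1a* call was lost under the median of ratios and the endothelial scaling, only *egr2b* was called with 1 FPKM added, and with TPM all 4 were called lower. TPM also raised the number of all tested genes called lower, from 3091 as deposited to 4620.

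Other cells that a sort could hold were followed through their markers, since several specifiers are also expressed outside the crest. Of 10 epidermal genes 0 were called (limma, 5 higher and 0 lower at an unadjusted p under 0.05), and their sum was 107.85 to 109.12 FPKM in *nlrc3* MO samples, against 93.59 to 98.71 FPKM in control MO samples. *krt4* and *cyt1*, the most abundant, averaged 56.0 and 25.9 FPKM in *nlrc3* MO samples and 51.6 and 22.6 FPKM in control MO samples, and *epcam* and *cldni* had log2 fold changes of 0.55 and 0.97. That of *tp63* was 0.59, while those of *krt5*, *krt91*, *krt92*, *krt17* and *cdh1* were -0.40, -0.58, -0.46, -0.67 and -0.18. The median of the list was -0.03, so the epidermal genes did not move in one direction. Under the median of ratios and the endothelial scaling *cldni* was called higher.

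Neural genes were lower for 5 of 9 tested (55.6%, beside 20.4% of all tested genes), among them *sox2* and *fabp7a*, while *sox3* and *gfap* were not called. For *neurod1*, also called lower, no *nlrc3* MO sample reached the minimum of the filter. The neural sum was 8.75 to 11.18 FPKM in *nlrc3* MO samples, against 23.88 to 26.57 FPKM in control MO samples. With TPM 8 of the 9 were called lower, *sox3* and *gfap* among them, and with 1 FPKM added 3 were. Over all tested genes 3091 were called lower as deposited, 4620 with TPM and 1944 with 1 FPKM added. In the otic list 3 of 5 tested genes were lower (60.0%), *eya1*, *oc90* and *otx1*, and *stm* and *pax8* were not called. Sums of this list were 10.37 to 11.92 and 27.57 to 32.96 FPKM in *nlrc3* MO and control MO samples. No *nlrc3* MO sample of *otx1* reached the minimum of the filter. The *otx1* call was lost under the median of ratios, under the endothelial scaling and with 1 FPKM added, which left 2. Of 9 muscle genes 0 were called lower and 2 higher, *mymk* and *myog* (limma, 3 lower at an unadjusted p under 0.05). No control MO sample of *mymk* or *myog* reached the minimum of the filter, so only a higher call was possible for them. Over all tested genes 4.89% were called higher. The muscle genes *actc1b*, *mylpfa*, *ckma* and *tnnc2* were not called. With TPM, 3 muscle genes were called lower, *mylpfa* among them. The part of these cell types in the specifiers' values was not tested.

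Endothelial genes summed to 606.95 to 633.39 FPKM in *nlrc3* MO samples, against 886.03 to 897.86 FPKM in control MO samples. Their median log2 fold change was -0.13, beside -0.22 over all tested genes. Of 13, 2 were called lower (15.4%, beside 20.4% of all tested genes). These were *fli1a*, whose promoter drives the reporter used for sorting (90.6 ± 3.13 and 205 ± 2.76 FPKM, log2 fold change -1.17), and *egfl7* (48.4 and 127 FPKM, -1.39), while *clec14a* and *plvapb* were not called. Of the others not called, *pecam1*, *kdrl* and *cdh5* had log2 fold changes of -0.61, -0.39 and -0.37. Those of *esama*, *tie1*, *she* and *erg* were -0.09, -0.08, -0.03 and 0.03, and *tek* and *etv2* were higher, at 0.27 and 0.18. The sum therefore does not show the level of each endothelial gene. The *fli1a* call was lost under the median of ratios and the endothelial scaling. In the erythroid list 8 of 10 genes were called higher, *hbbe3*, *hbae3*, *hbbe2* and *slc4a1a* among them, and in the myeloid list 6 of 7, among them *lyz*, *lcp1*, *coro1a* and *mpx*. With TPM these counts were 3 and 4. Over all tested genes 741 were called higher as deposited (4.89%) and 295 with TPM. Erythroid sums were 109983 to 112046 FPKM in *nlrc3* MO samples, against 38762 to 39043 FPKM in control MO samples, and myeloid sums 1182 to 1204 and 512 to 519 FPKM. The part of erythroid and myeloid cells in the specifiers' values was not tested.

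The Gene Ontology terms listed with the genes gave a view of what the 10 share beyond their name. A term naming the neural crest was carried by 5 of them, *tfap2a*, *tfap2c*, *pax3a*, *foxd3* and *sox10*, and by none of the Snail or Sox9 genes. Terms for cartilage development were carried by 4 (*foxd3*, *tfap2a*, *sox9a* and *sox9b*), for melanocyte differentiation by 4 (*foxd3*, *tfap2a*, *sox9b* and *sox10*) and for otic placode formation by 4 (*tfap2a*, *tfap2c*, *sox9a* and *sox9b*). The 5 genes with a crest term had means of 2.02% (*tfap2a*) to 105% (*foxd3*) of the control MO mean, and the 5 without one 3.29% (*sox9a*) to 13.9% (*snai1a*).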

How the data were processed

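RNA sequencing was done by the authors on EGFP+ cells of 3 *nlrc3* MO and 3 control MO samples, grouped by the labels. According to the methods, reads were aligned with HISAT2 and assembled with StringTie. The sample records name another aligner and a mouse genome, which the zebrafish gene identifiers do not match. The authors deposited FPKM for 32057 genes, with their own fold changes and p-values, which were not used. Control columns carry the first letter of the standard morpholino and were assigned by it.

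The fit used limma 3.58.1 (lmFit, eBayes with a trend) in R 4.3.3 on log2(FPKM + 0.1), with Benjamini-Hochberg adjustment of the p-values over 15155 genes. The script was tested on simulated data. Paralog ratios were compared by two-sided exact permutation tests. Alternatives were pseudocounts of 1 and 0.01, other filters, 4 scalings, a replicate block, no trend, no fold limit, and each sample left out.

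The members and the 16 lists (187 symbols, 6 not used here because the table has no such symbol) were chosen with earlier results of these data known. Named genes were all specifiers and their measured relatives, *nlrc3*, and from each other list the 4 most abundant tested genes and any called against its list's direction. No positions or sequences were used.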

Additional observations from a re-analysis of the deposited data

How the results depend on the processing

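The counts of 9 specifiers called lower and 0 called higher (limma) were the same under all 17 alternatives. Over the alternatives the log2 fold changes ran from -5.95 to -4.93 for *tfap2a*, from -4.47 to -2.54 for *sox9b*, from -3.71 to -1.83 for *pax3a* and from -2.20 to -1.18 for *sox10*, with the values nearest 0 at a pseudocount of 1 FPKM. The sign of *foxd3* turned with a pseudocount of 0.01 (-0.00739), with TPM (-0.35) and without globin genes (-0.00691), and leaving out single samples gave -0.30 to 0.27. A filter of 1 FPKM left *foxd3* untested. The cause of these turns was not tested, and all were inside its confidence interval. The fold change of *nlrc3* was -0.64 with a pseudocount of 1, short of the 2-fold limit.

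Over all tested genes 3832 were called, against 2298 with a pseudocount of 1, whose construction shrinks low values, and 9558 with no fold limit. Leaving out a sample gave 3691 to 3862. Scaling moved the balance of the calls: 19.3% of calls were higher as deposited (741 higher, 3091 lower), 6.0% with TPM (295 and 4620), 31.7% with the median of ratios (1165 and 2511) and 39.8% with endothelial scaling (1497 and 2264).

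Samples with the same number did not deviate together (correlations 0.00409, 0.04 and -0.00336), so the numbers were not taken to pair them. With the replicate block 3845 genes were called, 9 specifiers lower among them, and the limma adjusted p of *sox10* was 0.000417. Leaving out single samples left the paralog differences at -1.50 to -0.50 for *sox9a* over *sox9b*, -3.46 to -3.38 for *tfap2a* over *tfap2c* and 1.37 to 1.72 for *snai1a* over *snai1b*. Depth is unknown, and values of about 1 FPKM or less, as for *sox10*, *foxd3*, *pax3a*, *sox9b* and *snai1b* in *nlrc3* MO samples, are the least certain.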

Other observations

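Beyond the lists written for this work, 123 other genes carry a Gene Ontology term that names the neural crest, a list chosen after seeing the data, and 10 of them also stand in those lists. Of 99 tested, 44 were called lower (44.4%) and 3 higher, with a median log2 fold change of -0.67, beside 20.4% called lower and a median of -0.22 over all tested genes. Of the 44, *alx1*, *sema3e*, *pdgfrb*, *sema3bl*, *sema4ba*, *foxi1*, *sema3c*, *rab11fip2*, *zeb2b*, *sema3ga* and *tbx1* had no *nlrc3* MO sample at the filter minimum. For these only a lower call was possible, and the share of 44.4% includes them. Of all 15155 tested genes 836 were of this kind. The lower genes, named after their values were seen, included *foxc1b*, a forkhead gene of arch and head mesenchyme, which averaged 0.943 ± 0.229 FPKM in *nlrc3* MO samples and 51.7 ± 1.83 FPKM in control MO samples. *tnc*, the matrix protein tenascin-C, averaged 2.81 ± 0.351 and 130 ± 6.62 FPKM in these groups (SD, n = 3 each). The 3 called higher were *bmper* (10.8 ± 0.855 and 4.46 ± 0.700 FPKM), *dhrs9* (10.4 ± 0.482 and 3.69 ± 0.601 FPKM) and *sema4aa* (2.46 ± 0.430 and 0.950 ± 0.0854 FPKM). The lower count was 38 to 53 under the alternatives that kept the fold limit and 69 without it.

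A second such list, of genes with a term naming the viscerocranium or cartilage, had 77 of 168 tested genes called lower (45.8%) and 5 higher, with a median of -0.66, beside 20.4% lower and 4.89% higher over all tested genes. It is not separate from the others. Lower genes such as *prdm1a*, *smo* and *tbx1* are also in the first, and *dlx1a* and *tfap2b* are in lists written for this work. Some lower genes, *dlx1a* and *fgf20b* among them, had no *nlrc3* MO sample at the minimum of the filter. Of the 5 called higher, *and2* had no control MO sample at that minimum, so only a higher call was possible for it. *dcn*, the matrix proteoglycan decorin, averaged 1.02 ± 0.0985 FPKM in *nlrc3* MO samples and 48.9 ± 0.659 FPKM in control MO samples.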
